A study of Mus musculus with 12 samples.

Results

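The metabotropic glutamate (mGlu) receptors described here are the products of Grm2, Grm3, Grm4, Grm5, Grm7 and Grm8. Members were all probe sets whose annotated gene symbol was one of these names, whatever their values, which gave 8 probe sets for 6 of the 17097 genes named on the array. The RNA came from the mouse hippocampus ipsilateral to an amygdala injection and was hybridised to 12 Affymetrix Mouse MG-430 PM arrays. Kainic acid (KA) activates kainate-type glutamate receptors and, injected there, sets off status epilepticus, a seizure that does not end by itself.

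The 4 groups held 3 arrays each. KA 8 h and KA 14 d mice received 0.3 µg of KA in 0.2 µl of buffered saline, with lorazepam, a benzodiazepine, at 6 mg/kg given 40 min later. CTR 8 h and CTR 14 d mice received 0.2 µl of the vehicle alone in the same place. Whether lorazepam was also given to CTR mice is not stated in the labels. Strain, genotype, sex and age are not in the labels used here. The time in the sample titles was used. A second time entry gives 8 to 10 h for the CTR 8 h arrays and 11 to 13 h for the KA 8 h arrays, and under that entry the KA and CTR arrays would also differ in time, which could then not be separated from KA. Nothing in the labels ties an array to an animal of its own, so the spread behind each p-value may be technical.

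The arrays were alike in overall level, with medians of 4.90 to 4.95 on the log2 scale and correlations of 0.989 to 0.997 within groups. The mean of the GC-rich background probe sets lay between 4.10 and 4.68 per array. The KA 8 h arrays stood apart in sex-linked transcripts: Xist lay at 7.39 to 8.71 on them and at 4.19 to 4.67 on the other 9 arrays, and the Y-linked gene Eif2s3y at 5.57 to 6.83 on them and 7.46 to 8.09 on the others. On the KA 8 h arrays Eif2s3y was lower but still above background, so Xist and a Y-linked transcript were both found on the same arrays. The source of this was not tested. A difference in sex between the animals cannot be told apart from KA in any result at 8 h below, nor in the difference of the changes between the times. No tested marker of granule, CA1 or CA3 neurons was at or below background on all arrays of a group. In bulk tissue, fewer cells of a type and less RNA per cell cannot be told apart.

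The mGlu receptors are G protein-coupled receptors that tune synapses rather than open a channel. Group I receptors, among them the product of Grm5, sit mainly beside the postsynaptic density and couple through Gq to phospholipase C and calcium release. Group II (Grm2, Grm3) and group III (Grm4, Grm7, Grm8) couple through Gi/o, lower cyclic AMP and act largely at axon terminals, where they restrain transmitter release; Grm3 is also known from astrocytes.

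At 8 h after KA, Grm5 and Grm3 fell and Grm2 rose, each by less than 1.5-fold, and the other 3 receptors did not pass the test. These 3 of 6 genes called compare with 17.5% of the 13853 genes tested (adjusted p under 0.05 in limma, over all genes tested), the 2 that fell with 9.55% called lower and the 1 that rose with 7.92% called higher. The same 3 had no overlap between the KA and CTR arrays, as had 33.8% of all genes, and the median change of the 6 receptors was -0.21, against -0.02 over all genes. At 14 d no receptor passed in limma, against 2.56% of all genes (1.99% higher and 0.57% lower), although 2 of the 6 (Grm2 and Grm5) had an unadjusted p under 0.05, as had 12.6% of all genes. Grm2 alone had no overlap at 14 d, against 16.5% of all genes. All values below are log2 intensities, in which a difference of 1 is a doubling, and levels of different probe sets are not compared with each other.

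The group II receptors come first among the sequences, because they moved in opposite directions at 8 h. The 250 bases before the start of each gene are from RefSeq (GRCm38.p6), both on the minus strand, at chr9:106656110-106656359 for Grm2 and chr5:9725353-9725602 for Grm3, and are printed 5′ to 3′ with GC boxes (GGGCGG) in capitals.
Grm2: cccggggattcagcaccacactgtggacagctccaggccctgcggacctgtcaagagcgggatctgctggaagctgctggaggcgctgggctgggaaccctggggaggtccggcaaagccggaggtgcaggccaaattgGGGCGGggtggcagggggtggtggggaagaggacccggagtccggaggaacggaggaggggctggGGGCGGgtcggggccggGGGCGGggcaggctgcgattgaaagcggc
Grm3: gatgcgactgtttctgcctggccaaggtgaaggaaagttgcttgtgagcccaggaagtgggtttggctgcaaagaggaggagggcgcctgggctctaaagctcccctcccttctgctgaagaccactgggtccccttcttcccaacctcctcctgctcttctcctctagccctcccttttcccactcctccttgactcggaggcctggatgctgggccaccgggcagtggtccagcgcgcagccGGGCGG

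The Grm2 window held 3 GC boxes and 16 CpG dinucleotides at a GC content of 71.2%, and the Grm3 window 1 GC box and 8 CpG at 62.4%. The median over 32851 promoter windows was 52.4% GC with 6 CpG. Both strands were searched for the GC box, found in 32.7% of all windows, for an AP-1 site (TGANTCA, 6.75%), for a cyclic AMP response element (TGACGTCA, 1.55%) and for an Egr site (GCGNGGGCG, 4.7%, which can overlap a GC box). These letters of the AP-1, cyclic AMP and Egr motifs were not in either window. RefSeq windows were matched for 4 of the 6 receptors. Both Grm7 windows, which overlap, held the same GC box. Of the 3 Grm8 windows, 1 held 1 AP-1 match and 1 GC box, while the others held none of the motifs.

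**Figure D1:**
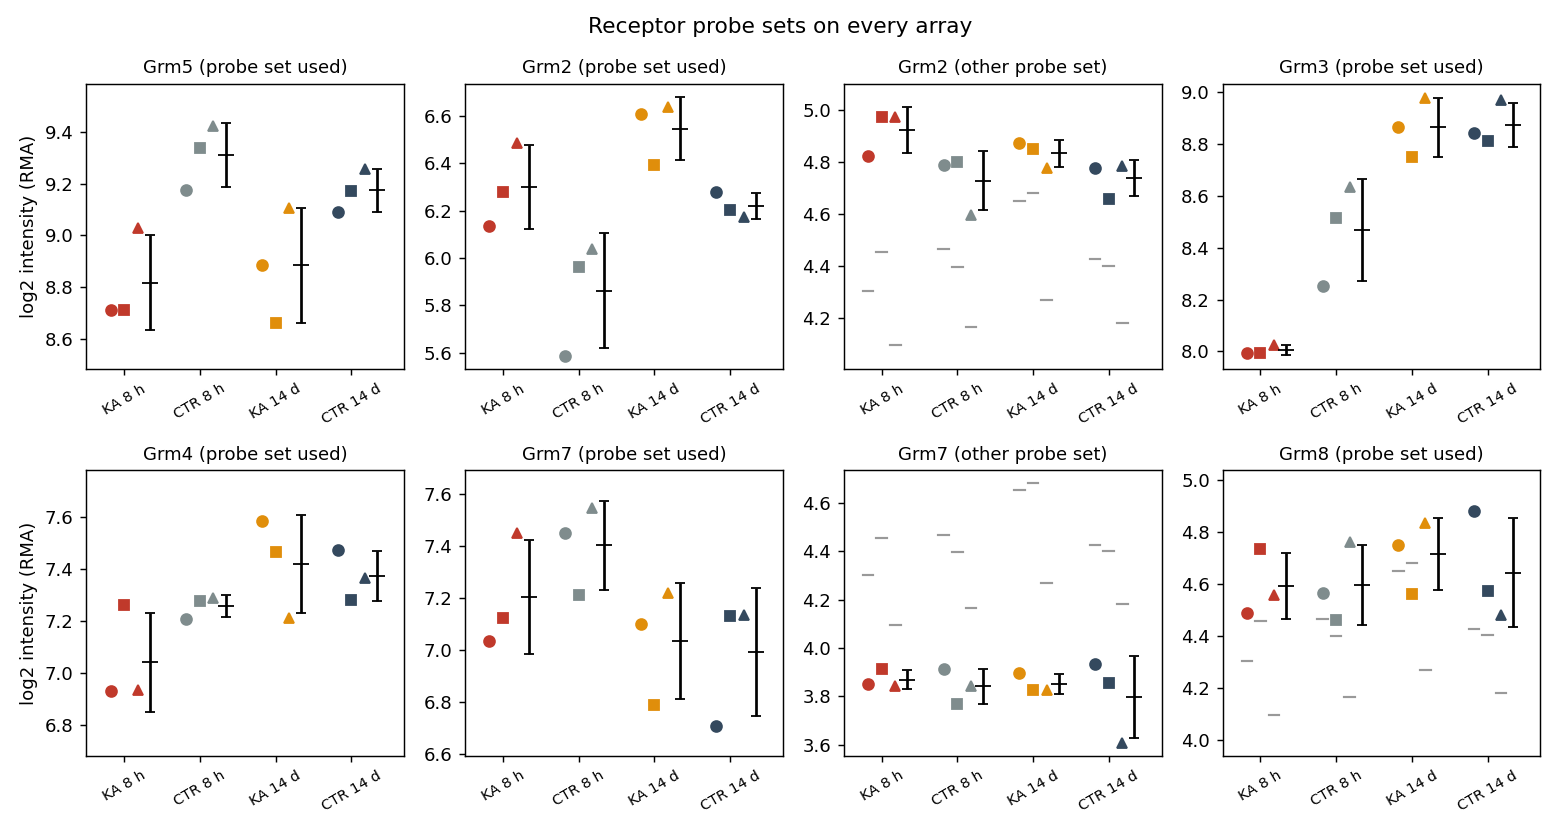
Log2 intensity (vertical axis) of each receptor's probe set on all 12 arrays, by group. Circles, squares and triangles mark replicates 1, 2 and 3, black bars are the mean ± SD, and grey dashes are the background of that array where it comes near the values. At 8 h the KA arrays lie below CTR for Grm5 and Grm3 and above CTR for Grm2, with no overlap.

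Grm5, the group I receptor, was lower after KA at 8 h. Its probe set read 8.71, 8.71 and 9.03 on the KA 8 h arrays, against 9.18, 9.34 and 9.42 on the CTR 8 h arrays. Every KA 8 h array lay below every CTR 8 h array. The fitted difference was -0.49 ± 0.12 (SE, 95% interval -0.74 to -0.24), which is 1.41-fold lower, with an adjusted p of 0.00853. Of all genes tested, 7.18% changed by more than this in size. At 14 d the KA arrays read 8.88, 8.66 and 9.11 and the CTR arrays 9.09, 9.17 and 9.26, so that the highest KA array passed the lowest CTR array. The difference at 14 d was -0.29 ± 0.12 (-0.54 to -0.04) and did not pass (adjusted p = 0.292). The change at 14 d minus the change at 8 h was 0.20 ± 0.17 (adjusted p = 0.624), so a different response at the 2 times was not shown.

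Grm2, an autoreceptor of glutamatergic terminals such as the mossy fibres, was the receptor that rose. It read 6.14, 6.28 and 6.49 on the KA 8 h arrays, against 5.59, 5.96 and 6.04 on the CTR 8 h arrays. The groups did not overlap, but the lowest KA value lay only just above the highest CTR value. The difference was 0.44 ± 0.12 (0.18 to 0.69), 1.36-fold higher, with an adjusted p of 0.0188. This call rests on single arrays, since without CTR 8 h replicate 1 the difference was 0.30 (adjusted p = 0.0952) and without KA 8 h replicate 3 it was 0.35 (adjusted p = 0.0837). At 14 d the KA arrays read 6.61, 6.39 and 6.64 and the CTR arrays 6.28, 6.20 and 6.17, again without overlap. That difference, 0.33 ± 0.12 (0.07 to 0.58), did not pass (adjusted p = 0.221). The change at 14 d minus that at 8 h was -0.11 ± 0.17 (adjusted p = 0.834).

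A second Grm2 probe set was dim. It read 4.82, 4.97 and 4.97 on the KA 8 h arrays, against 4.79, 4.80 and 4.60 on the CTR 8 h arrays. The KA arrays were all above the CTR arrays, as with the brighter probe set, but the difference of 0.19 did not pass over all 32790 probe sets tested (adjusted p = 0.148). At 14 d its difference was 0.09 (adjusted p = 0.769).

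Grm3, the other group II receptor, was lower after KA at 8 h and level with its control at 14 d. It read 7.99, 7.99 and 8.03 on the KA 8 h arrays, against 8.25, 8.51 and 8.64 on the CTR 8 h arrays. The KA arrays were nearly identical and lay below all 3 CTR arrays. The difference was -0.46 ± 0.10 (-0.67 to -0.25), 1.38-fold lower, with an adjusted p of 0.00417. At 14 d the KA arrays read 8.87, 8.75 and 8.98 and the CTR arrays 8.84, 8.81 and 8.97, which overlapped throughout. The difference at 14 d was -0.01 ± 0.10 (-0.22 to 0.20, adjusted p = 0.981). The change at 14 d minus the change at 8 h was 0.45 ± 0.14 (0.15 to 0.75) and did not pass (adjusted p = 0.0798). It was called without CTR 8 h replicate 1 (adjusted p = 0.0236) or KA 14 d replicate 2 (0.0466). No receptor passed in limma for this difference of changes, against 5.52% of all genes (2.45% higher and 3.06% lower), and 1 of 6 (Grm3) had an unadjusted p under 0.05, a share near the 17.8% of all genes.

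The group III receptors did not pass at either time. Grm4, a presynaptic receptor best known from cerebellar terminals, read 6.93, 7.26 and 6.93 on the KA 8 h arrays, against 7.21, 7.28 and 7.29 on the CTR 8 h arrays, which overlapped through 1 KA array. At 14 d it read 7.58, 7.46 and 7.21 on the KA arrays and 7.47, 7.28 and 7.37 on the CTR arrays, again with overlap. Its differences were -0.22 ± 0.11 (-0.45 to 0.02, adjusted p = 0.209) at 8 h and 0.05 ± 0.11 (-0.19 to 0.28, adjusted p = 0.922) at 14 d. The interval at 8 h reaches nearly to the fall seen for Grm5.

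Grm7, a receptor of the active zone with low affinity for glutamate, read 7.03, 7.12 and 7.45 on the KA 8 h arrays, against 7.45, 7.21 and 7.55 on the CTR 8 h arrays. At 14 d it read 7.10, 6.79 and 7.22 on the KA arrays and 6.71, 7.13 and 7.14 on the CTR arrays. The groups overlapped at both times. The differences were -0.20 ± 0.15 (-0.51 to 0.11, adjusted p = 0.422) and 0.04 ± 0.15 (-0.27 to 0.35, adjusted p = 0.945), the widest errors among the receptors. A second Grm7 probe set lay below background on all 12 arrays and was not tested. Grm8, a presynaptic receptor, was close to background: it read 4.49, 4.73 and 4.56 on the KA 8 h arrays and 4.56, 4.46 and 4.76 on the CTR 8 h arrays. At 14 d it read 4.75, 4.56 and 4.84 on the KA arrays and 4.88, 4.57 and 4.48 on the CTR arrays, and KA 14 d replicate 2 was not above its own background. Its differences were within 0.1 of 0 at both times (adjusted p = 0.994 and 0.880), and at this signal a change in Grm8 may not be measurable.

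**Figure D2:**
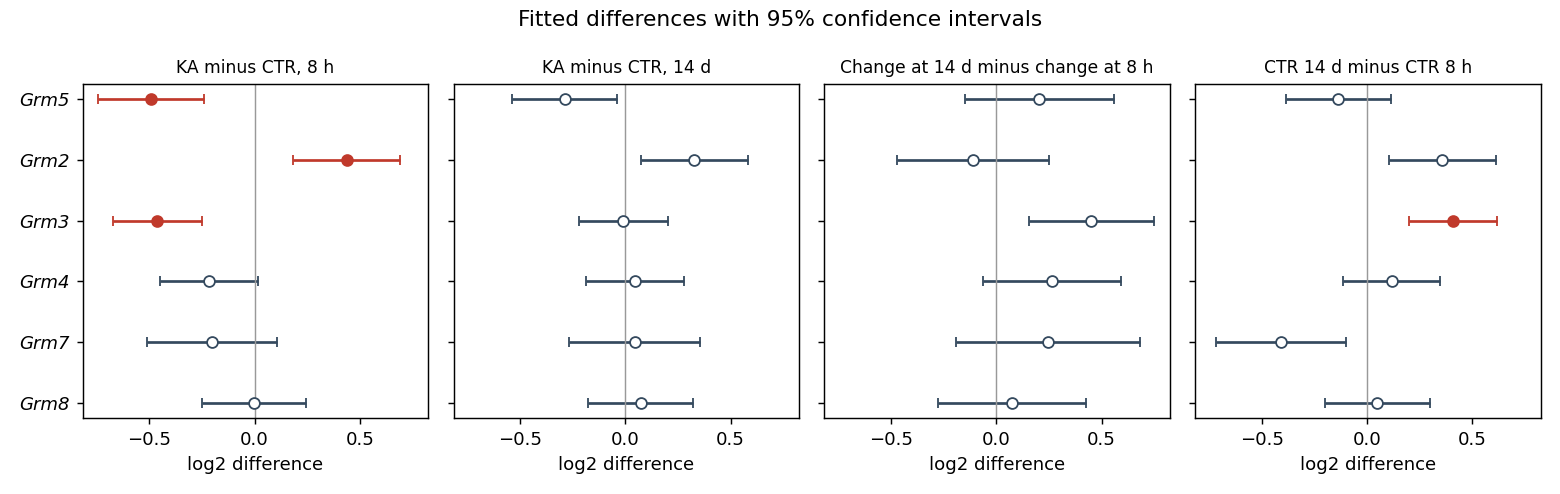
Fitted log2 differences of each receptor with 95% intervals, for each comparison. Filled red points have an adjusted p under 0.05: Grm5, Grm2 and Grm3 at 8 h, and Grm3 between the control groups.

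The control groups of the 2 times were not alike. Grm3 read 8.84, 8.81 and 8.97 on the CTR 14 d arrays, above the CTR 8 h arrays given before, and was the receptor called (1 of 6, against 1.8% of all genes, 1.12% higher and 0.679% lower). Its difference of 0.41 ± 0.10 (0.20 to 0.62), 1.33-fold higher, was barely past the threshold (adjusted p = 0.0497) and was lost in 9 of 12 fits that left out 1 array, with adjusted p-values of 0.0327 to 0.253 over those fits. It was smallest, at 0.30, without CTR 8 h replicate 1. Grm2 and Grm7 also did not overlap between the control groups, which 25.1% of all genes did not, with differences of 0.36 ± 0.12 (adjusted p = 0.156) and -0.41 ± 0.15 (adjusted p = 0.179). Time and anything else that differed between these groups cannot be told apart.

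The order of the groups differed between receptors. Grm3 averaged 8.87 ± 0.08 in CTR 14 d, 8.86 ± 0.11 in KA 14 d, 8.47 ± 0.20 in CTR 8 h and 8.00 ± 0.02 in KA 8 h (SD, n = 3 each). The 14 d groups overlapped, and each of the next steps down did not. Grm2 averaged 6.55 ± 0.13 in KA 14 d, 6.30 ± 0.18 in KA 8 h, 6.22 ± 0.06 in CTR 14 d and 5.86 ± 0.24 in CTR 8 h. Its only neighbours without overlap were CTR 14 d and CTR 8 h, so that KA 8 h and CTR 14 d could not be ordered. Grm5 averaged 9.31 ± 0.12 in CTR 8 h, 9.17 ± 0.08 in CTR 14 d, 8.88 ± 0.22 in KA 14 d and 8.82 ± 0.18 in KA 8 h, with every pair of neighbours overlapping. Neighbours also overlapped throughout for Grm4, Grm7 and Grm8.

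Over the 12 arrays, the genes whose pattern was most like each called receptor's were found by Pearson correlation among the 13853 genes. Predicted genes and clones were skipped. This is a description that the shared groups, libraries and normalization all enter. For Grm5 the genes were Cadps (0.970), Cd200 (0.965) and Ttc38 (0.960). For Grm2 they were Dpy19l3 (0.946), Tmeff2 (0.940) and Kcnip3 (0.939). For Grm3 they were Cspg5 (0.982), Add1 (0.976) and Naxe (0.973).

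Some markers of hippocampal cell types were called too, and their part in the receptor results was not tested. Over all genes, 17.5% were called at 8 h (7.92% higher and 9.55% lower) and 2.56% at 14 d (1.99% higher and 0.57% lower). A count near these shares says nothing particular about a marker list. Of 9 astrocyte markers, none of which was at or below background on all arrays of a group, Sox9 (1.13) and Gfap (1.02) rose at 8 h and none fell. The mean of the 9 was 8.02 to 8.10 on KA 8 h arrays, against 7.79 to 7.82 on CTR 8 h arrays, but their median change was 0.03. Among those that did not pass, Aldh1l1 (0.23), Aqp4 (0.21) and S100b (0.03) were higher. Gja1 (-0.22), Slc1a3 (-0.12), Gjb6 (-0.07) and Slc1a2 (-0.01) were lower. Slc1a3 (4.82 in KA 8 h, 4.93 in CTR 8 h) and Gjb6 (4.73 and 4.79) were dim, close to the array backgrounds of 4.10 to 4.68. At 14 d, 5 of the 9 rose, with means of 8.20 to 8.45 on the KA arrays and 7.75 to 7.86 on the CTR arrays. Of 7 microglia markers, P2ry12 (-1.56), Tmem119 and Csf1r fell and C1qb rose at 8 h, with means of 6.33 to 6.48 on the KA arrays and 6.57 to 6.79 on the CTR arrays. At 14 d, 6 of the 7 rose, led by C1qa (2.24), with means of 8.04 to 8.19 on the KA arrays and 6.95 to 7.06 on the CTR arrays.

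Of 7 dentate granule cell markers, Pdzd2 and C1ql2 rose and Dsp and Calb1 fell at 8 h, with means of 7.48 to 7.69 on the KA arrays and 7.61 to 7.75 on the CTR arrays. Pdzd2 and C1ql2 rose and Dsp fell at 14 d as well. Of 3 CA1 pyramidal markers none passed at 8 h (1 at an unadjusted p under 0.05), and Fibcd1 fell at 14 d, when their mean lay at 7.37 to 7.52 on the KA arrays and 7.77 to 7.95 on the CTR arrays. Of 5 CA3 pyramidal markers, Nectin3 (0.74) and Tspan18 (0.42) rose at 8 h and Elavl2 (-0.49) fell at 14 d. Of 7 oligodendrocyte markers, Mog (-0.69) and Cnp (-0.29) fell at 8 h. No choroid plexus marker passed at either time, but their mean spread from 6.00 to 8.26 on the KA 8 h arrays, against 7.54 to 7.95 on the CTR 8 h arrays. The interneuron, oligodendrocyte precursor, thalamus, cortex and amygdala, and endothelial lists, of 4 to 8 tested genes, had 1 to 3 called genes each at 8 h. All these counts stand beside 17.5% of all genes called at 8 h and 2.56% at 14 d.

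Among the scaffold, effector and glutamate supply genes listed for these receptors, 4 changed by more than 1 at 8 h, all upward: Homer1, whose product binds group I receptors, and Rgs4, Rgs2 and Rgs7, whose products shut off G protein signalling. Homer1 read 9.35, 9.31 and 9.35 on the KA 8 h arrays, against 7.89, 7.95 and 7.96 on the CTR 8 h arrays, with no overlap and a difference of 1.40 ± 0.14 (2.64-fold higher, adjusted p = 3.34e-06). At 14 d it read 8.37, 8.00 and 8.79 on the KA arrays and 8.32, 8.36 and 8.31 on the CTR arrays, a difference of 0.06 ± 0.14 (adjusted p = 0.927). The change at 14 d minus that at 8 h was -1.35 ± 0.19 (adjusted p = 0.000501). Homer1 makes a short form that uncouples receptors from their scaffold and long forms that tether them. Its 5 probe sets were not matched to these forms. Beside the probe set used, 3 had differences at 8 h of 0.35, 0.26 and 0.23, which did not pass. The fifth lay above background on all KA 8 h arrays and on none of the CTR 8 h arrays, so that its rise is only bounded, at 1.57 or more with the CTR arrays set to their background.

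Homer2, a tethering relative, fell at both times. Of the 12 scaffold and trafficking genes tested, Homer1 and Homer2 were the called ones, 1 up and 1 down at 8 h (16.7%, near the 17.5% called over all genes). At 14 d Homer2 alone was called (8.33%, against 2.56% of all genes). Homer2 read 6.60, 6.82 and 6.74 on the KA 8 h arrays, against 6.95, 7.19 and 7.27 on the CTR 8 h arrays. The difference was -0.41 ± 0.10 (adjusted p = 0.00930). It did not pass without CTR 8 h replicate 3 (0.0541), KA 8 h replicate 1 (0.0509) or the third array of each group (0.0586). At 14 d it read 6.79, 6.75 and 6.92 on the KA arrays and 7.28, 7.48 and 7.48 on the CTR arrays, with no overlap and a difference of -0.59 ± 0.10 (adjusted p = 0.00340). All 3 Homer2 probe sets were lower after KA at both times. The dimmest of them did not pass at 14 d over all 32790 probe sets tested (-0.43, adjusted p = 0.104). The median change of the list was -0.13 at 8 h and -0.08 at 14 d, against -0.02 and -0.01 over all genes.

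Of 12 genes of the Gq and phospholipase C route, Rgs4 and Rgs2 rose at 8 h and none fell, with a list median of -0.12. These 2 of 12 (16.7%) are a share near the 17.5% of all genes called, so the count at 8 h says nothing particular about the list. At 14 d Rgs2 was called higher and Trpc5 lower, again 2 of 12 (16.7%), against 2.56% of all genes. The lists of signalling genes were chosen with earlier results of these data known, so such a share does not test a route. Rgs4 read 9.83, 9.97 and 10.1 on the KA 8 h arrays, against 7.87, 8.21 and 8.33 on the CTR 8 h arrays, a difference of 1.81 ± 0.16 (3.52-fold higher, adjusted p = 1.59e-06). Rgs2 read 9.47, 9.35 and 9.62 on the KA 8 h arrays, against 7.56, 7.81 and 7.74 on the CTR 8 h arrays, a difference of 1.78 ± 0.19 (3.43-fold higher, adjusted p = 7.75e-06). At 14 d Rgs2 was still higher, at 9.07, 8.47 and 9.55 on the KA arrays and 7.86, 8.07 and 8.02 on the CTR arrays (1.05 ± 0.19, adjusted p = 0.00485). Rgs4 at 14 d differed by 0.62 ± 0.16 and did not pass (adjusted p = 0.0606). Its other probe sets, tested over all 32790 probe sets, differed at 14 d by 0.83 (adjusted p = 0.0684) and 0.70 (adjusted p = 0.0210), and the latter passed. The change of Rgs4 at 14 d minus that at 8 h was -1.20 ± 0.23 (adjusted p = 0.00533). Trpc5, a cation channel opened downstream of Gq, was lower at 14 d, at 7.72, 7.80 and 7.99 on the KA arrays and 8.16, 8.35 and 8.34 on the CTR arrays (-0.45 ± 0.10, adjusted p = 0.0216). That call was lost without CTR 14 d replicate 2 (0.115), CTR 14 d replicate 3 (0.0995), KA 14 d replicate 1 (0.118) or KA 14 d replicate 2 (0.0514). It was also lost in the fit of only the 2 groups compared (0.0576). The number of genes of this list called at 14 d was 1 in that fit and 5 with array weights.

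**Figure D3:**
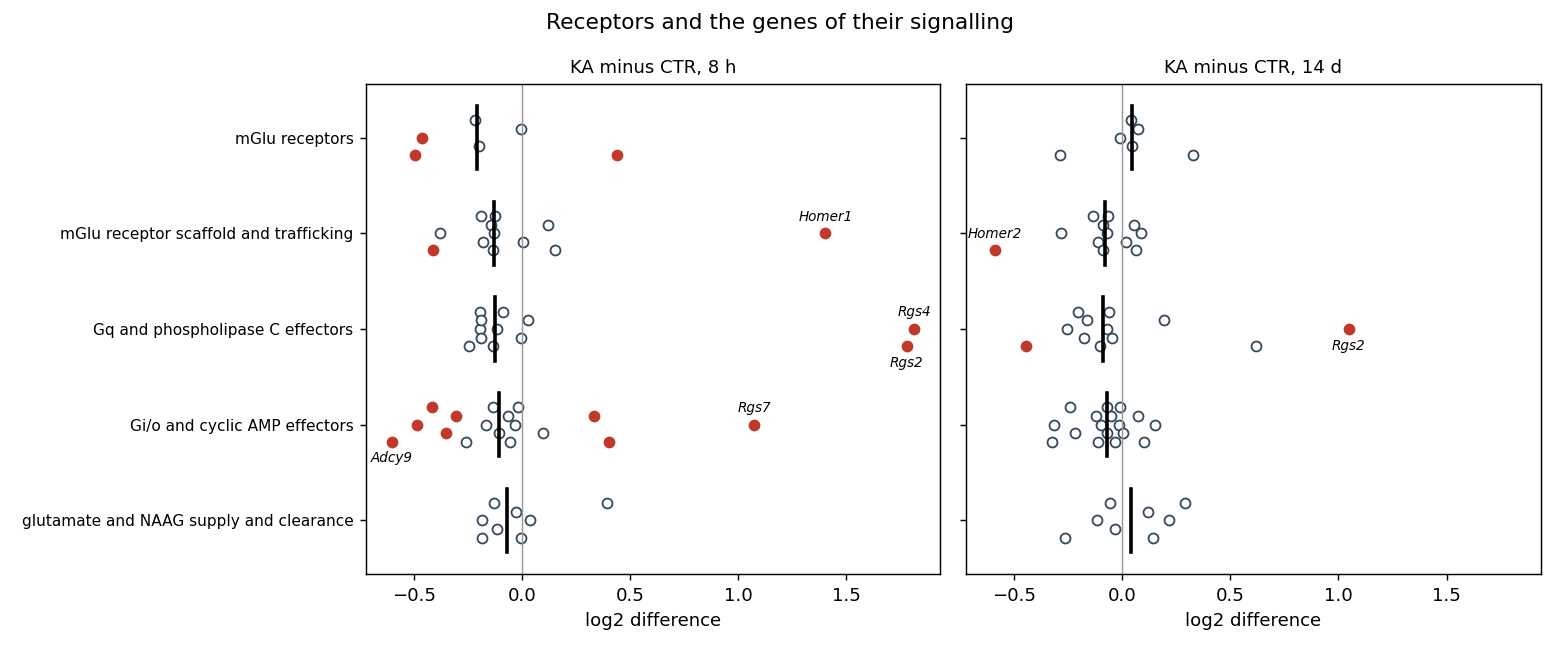
Log2 difference, KA minus CTR, of every tested gene in the receptor group and in each list of signalling genes, at 8 h (left) and 14 d (right). Filled red points have an adjusted p under 0.05, black lines are list medians, and names mark called genes whose change exceeds 0.55 in size. Homer1, Rgs4, Rgs2 and Rgs7 stand apart at 8 h, and at the probe set used for each gene only Rgs2 of them is called at 14 d.

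Of 17 genes of the Gi/o and cyclic AMP route, 3 rose and 5 fell at 8 h (list median -0.11). That is 47.1% called, against 17.5% of all genes (7.92% higher and 9.55% lower). This list too was chosen with earlier results of these data known, so its share does not test the route. Rgs7, another brake on Gi/o signalling, read 9.25, 9.16 and 9.34 on the KA 8 h arrays, against 8.21, 8.07 and 8.25 on the CTR 8 h arrays (1.07 ± 0.10, adjusted p = 2.59e-06). At 14 d its difference was -0.12 ± 0.10 (adjusted p = 0.717), and the change at 14 d minus that at 8 h was -1.19 ± 0.14 (adjusted p = 0.000115). Kcnj9, a potassium channel subunit opened by Gi/o proteins, was lower at 6.92, 6.61 and 6.70 on the KA 8 h arrays, against 7.06, 7.21 and 7.41 on the CTR 8 h arrays (-0.48 ± 0.11, adjusted p = 0.00468), while its other 3 probe sets did not pass. The other falls were of the adenylyl cyclases Adcy2 (-0.30 ± 0.08, adjusted p = 0.0157), Adcy1 (-0.35 ± 0.10, adjusted p = 0.0187) and Adcy9 (-0.60 ± 0.19, adjusted p = 0.0361) and of Prkaca, a catalytic subunit of protein kinase A (-0.42 ± 0.11, adjusted p = 0.0162). Adcy8, a calcium-stimulated cyclase (0.33 ± 0.10, adjusted p = 0.0376), and the channel subunit Kcnj6 (0.40 ± 0.11, adjusted p = 0.0167) rose. Adcy8 was dim, averaging 4.88 in KA 8 h and 4.54 in CTR 8 h, close to the array backgrounds of 4.10 to 4.68, so its rise is uncertain in size. Adcy1, Adcy9, Adcy8 and Kcnj6 were named after their values were seen, so that every called gene of the list is given. With KA 8 h replicate 1 left out, neither Adcy2 (adjusted p = 0.0809) nor Prkaca (0.0890) passed. The same held with CTR 8 h replicate 3 left out (0.0627 for Adcy2, 0.0740 for Prkaca). It also held without the third array of each group (0.0893 for Adcy2, 0.0763 for Prkaca). The other Prkaca probe set did not pass at 8 h over all 32790 probe sets tested (-0.36, adjusted p = 0.204). The number of genes of this list called, 8, was 2 without KA 8 h replicate 1 and 4 without CTR 8 h replicate 3. It was 5 without CTR 8 h replicate 1 and 5 without the third array of each group.

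At 14 d none of these 17 genes passed in limma, although 3 had an unadjusted p under 0.05, as had 12.6% of all genes. Of 8 tested genes that supply or clear glutamate and N-acetylaspartylglutamate, the peptide transmitter of group II receptors, none passed at 8 h (0 at an unadjusted p under 0.05, list median -0.07) or at 14 d (1 at an unadjusted p under 0.05, list median 0.04). Over all genes, 17.5% passed at 8 h and 2.56% at 14 d. Between the control groups Adcy8 (0.45 ± 0.10, adjusted p = 0.0409) and Rimklb (0.35 ± 0.08, adjusted p = 0.0451), a synthase of that peptide, were higher in CTR 14 d than in CTR 8 h, both named after their values were seen. Adcy8 was close to background here too, averaging 4.99 in CTR 14 d and 4.54 in CTR 8 h.

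**Figure D4:**
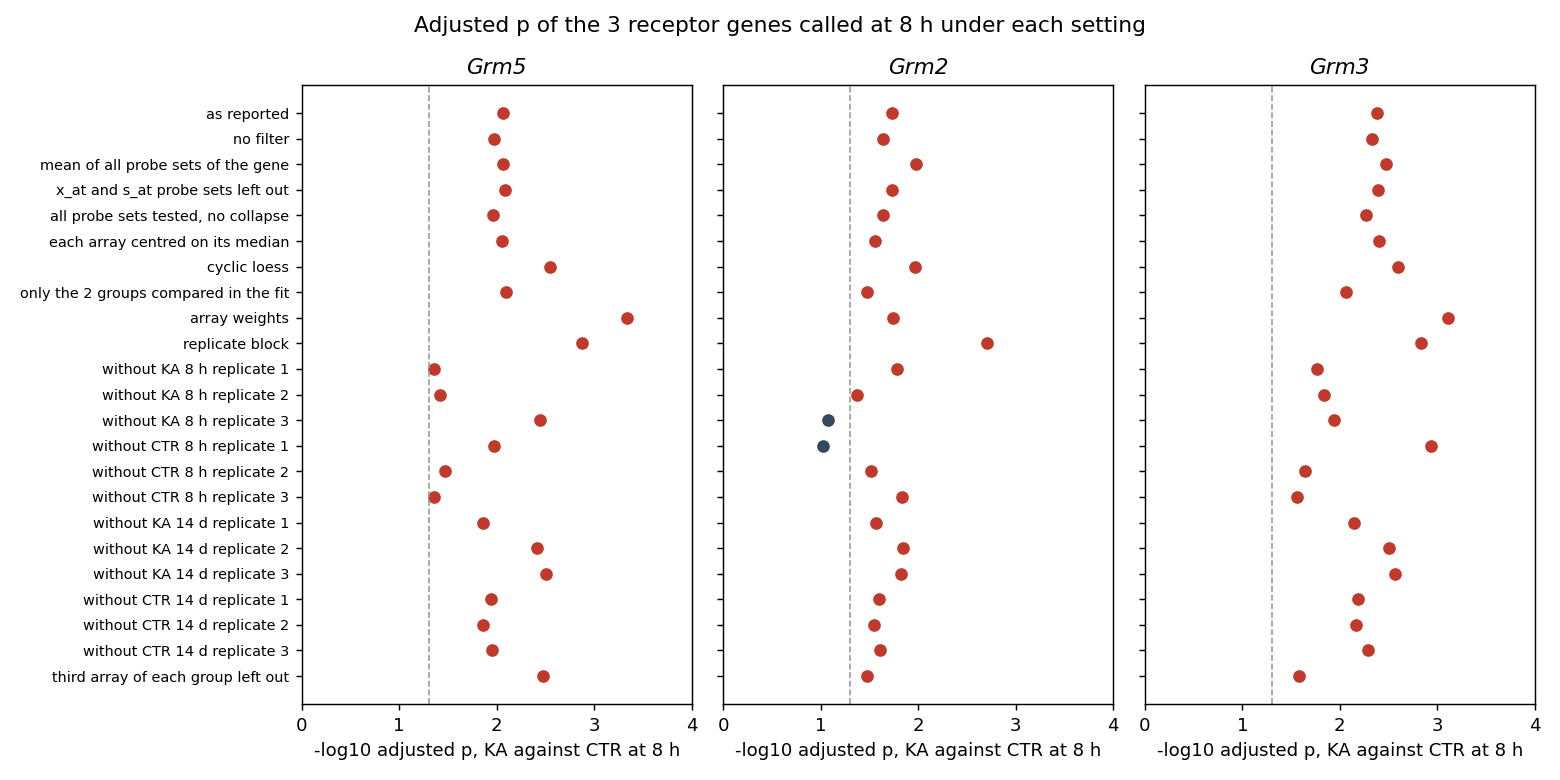
Strength of the 8 h result for Grm5, Grm2 and Grm3 under each way of processing, as -log10 of the adjusted p (horizontal axis). The dashed line is the threshold of 0.05 and red points lie past it. Grm5 and Grm3 are past it throughout, and Grm2 is not in the fits without CTR 8 h replicate 1 and without KA 8 h replicate 3.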

How the data were processed

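The deposited log2 values were made by the authors with RMA, since the submitters' processing notes name RMA and affy, with no version. Per the labels' protocols, the total RNA input was 5 ng, whole-transcriptome amplification ran for 22 cycles and 8 µg of the product was fragmented and labelled. The table held 45037 probe sets beside 104 controls, of which 28898 had 1 gene symbol, 551 several and 15588 none in the annotation used here, an older release updated by gene identifier (28689 probe sets) with RefSeq of GRCm38.p6. The probe set with the highest mean stood for each gene, and genes were tested if at least 3 arrays exceeded their own 30th percentile (4.08 to 4.15). Of the 6 receptors all passed, with 7 of their 8 probe sets. Background was the mean of 8 nonspecific probe sets with 18 to 25 G or C bases.

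All 12 arrays were fitted with limma 3.58.1 (R 4.3.3), a mean per group, lmFit and eBayes with 8 residual degrees of freedom, two-sided, with Benjamini-Hochberg adjustment over 13853 genes and a call at an adjusted p under 0.05. The script was tested on simulated data. Precision is limited by 3 arrays per group. All receptors were named, with up to 4 called genes per list and time by adjusted p, Homer1 in any case, and the 3 genes most like each called receptor. The members and lists were chosen with earlier results of these data known. Alternatives covered the filter, the probe set, centring, cyclic loess, array weights, the samples in the fit, the threshold, a replicate block and each array left out, and those of the pathway genes were added after seeing the data.

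Replicate numbers recur in the groups without a statement in the labels that they mark pairs. Deviations of same-numbered KA and CTR arrays from their group means correlated at 0.155, 0.138 and 0.413 at 8 h and at 0.164, 0.0684 and 0.463 at 14 d, so that each 8 h pair, but not each 14 d pair, was above 0.1. Arrays of different numbers reached 0.163 at 8 h (KA replicate 2 with CTR replicate 1), above the 0.138 of KA replicate 2 with its own number. At 14 d the same combination reached 0.349, above the 0.164 and 0.0684 of same-numbered replicates 1 and 2. Only the third arrays correlated more than every pair of different numbers, so the evidence for a pairing of replicates 1 and 2 by number is weak. The third arrays stood apart in all 4 groups, as given under Other observations, and the source of this was not tested. With the replicate block, 3076 genes were called at 8 h, against 2420 without it. The counts were 576 against 354 at 14 d and 1178 against 764 for the difference of changes.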

Additional observations from a re-analysis of the deposited data

Results flagged for a closer look

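Of the 49 scaffold, effector and glutamate supply genes tested, 3 had a KA response that differed between the times, tested as the change at 14 d minus the change at 8 h in limma. This is 6.12%, near the 5.52% of all genes called for the same difference. The values were -1.35 for Homer1 (adjusted p = 0.000501), -1.20 for Rgs4 (adjusted p = 0.00533) and -1.19 for Rgs7 (adjusted p = 0.000115). Each was called in all 20 alternatives tried. The KA 8 h arrays stand apart in Xist and Eif2s3y, and the part of this in these differences was not tested.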

How the results depend on the processing

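Grm5 and Grm3 at 8 h kept their direction and call under all 22 alternatives (adjusted p 0.000457 to 0.0445 and 0.000784 to 0.0273). Grm2 at 8 h was lost in 2 of 22 (0.00196 to 0.0952), and 2 to 3 receptors were called with 1 array left out. At 14 d, where none was called, array weights called 2 (Grm2 at 0.00613 and Grm5 at 0.0172) and the replicate block 1 (Grm2 at 0.0445). For the difference of changes, none was called, against 1 with cyclic loess, 2 with array weights, 1 with the replicate block (Grm3 at 0.0330) and 0 to 1 with 1 array left out. Between controls, 1 was called, against 0 at an adjusted p under 0.01, 0 without a filter, 0 over all probe sets, 0 with median centring, 2 with array weights, 0 without the third arrays and 0 to 1 with 1 array left out. The cause was not tested, and the array weights had not converged. The replicate block changed no other receptor call. It could not be run between controls, and the fit of only the groups compared does not apply to the difference of changes.

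Of 516 receptor values under alternatives, 470 kept direction and call, 15 lost a call, 10 gained one and 21 turned sign, none of them called. With 1 array left out these ranged, for Grm8 at 8 h, from -0.074 to 0.081 (0.035 with array weights, 0.099 without the third arrays), for Grm3 at 14 d from -0.067 to 0.047 (0.040 with cyclic loess, 0.020 with array weights), for Grm4 at 14 d from -0.036 to 0.15, for Grm7 at 14 d from -0.098 to 0.17, and for Grm8 at 14 d from -0.0097 to 0.19 (-0.070 without the third arrays). For the difference of changes they were -0.20 to 0.026 for Grm2 (0.013 with array weights) and -0.0085 to 0.19 for Grm8 (-0.17 without the third arrays), and between controls -0.070 to 0.13 for Grm8. Over all genes, calls at 8 h ranged from 1657 (without CTR 8 h replicate 3) to 3293 (array weights) around 2420. With all 32790 probe sets tested instead of genes, 4843 probe sets (14.8%) were called at 8 h. Calls of genes ranged from 196 (without CTR 14 d replicate 2) to 2099 around 354 at 14 d. They ranged from 508 (without CTR 14 d replicate 2) to 2168 around 764 for the difference and from 85 (without CTR 8 h replicate 1) to 1336 around 249 between controls. Grm8 was limited by its signal, near background.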

Other observations

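The arrays numbered 3 were the highest of their group in all 4 groups for Grm5, Grm3 and Grm7, 3 of the 6 receptors. Over all 13853 genes this held for 1684 (12.2%), against 115 (0.83%) for the arrays numbered 1 and 229 (1.65%) for those numbered 2. The third arrays also had the lowest GC-rich background of their group, at 4.10 in KA 8 h, 4.16 in CTR 8 h, 4.27 in KA 14 d and 4.18 in CTR 14 d. Without the third arrays, Grm5, Grm2 and Grm3 at 8 h were still called.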
